A study of Mus musculus with 18 samples.

Results

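Polycomb group genes encode 2 kinds of chromatin complex that keep genes silent through cell divisions. Polycomb repressive complex 2 (PRC2) places methyl groups on lysine 27 of histone H3, with EZH2 or EZH1 as the enzyme, EED as the subunit that reads the mark, SUZ12 as the scaffold and JARID2 as an accessory subunit. Polycomb repressive complex 1 (PRC1) places ubiquitin on histone H2A through RING1 or RNF2, helped by partners such as BMI1, and its CBX subunits bind the PRC2 mark. KDM6B is not a Polycomb protein but a demethylase that removes that mark. In the B lineage EZH2 is known for its role in germinal centers, where B cells divide and mutate their antibody genes. The members were the rows of the deposited table of FPKM (reads on a gene scaled by its exon length and by all reads on genes of the library) named Ezh1, Ezh2, Eed, Suz12, Jarid2, Bmi1, Ring1, Rnf2, Cbx2 and Kdm6b, 10 of 21761 genes. All 10 passed the filter on low values (FPKM above 1 in at least 2 of 18 libraries), as did 11522 genes in all. Cbx2 did so through GCB, where 5 libraries were above 1 FPKM against 1 BMPC library and 0 nB libraries.

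The 18 libraries came from 6 groups of 3, formed by 3 cell types and 2 genotypes of adult mice of a mixed strain background (B6;129S4-Dnmt3atm3.1Enl Dnmt3btm5.1Enl/Mmnc). Both genotypes were Dnmt3a fl/fl and Dnmt3b fl/fl, with 1 copy of a Cre allele in Dnmt3-deficient mice and none in their Dnmt3-sufficient littermates, so that all groups shared the loxP sites flanking the catalytic exons. The Cre acts from early B cell development on, so the deletion is limited to the B lineage. Lymph nodes gave the naive B cells (nB, B220+ Fas- GL7-) of mice that had not been immunized and the germinal center B cells (GCB, B220+ PE+ Fas+ GL7+), and bone marrow gave the plasma cells (BMPC, CD138+). GCB and BMPC were taken 30 days after immunization with phycoerythrin (PE). Each GCB library pooled a pair of mice and each nB or BMPC library came from 1 mouse. Of the 6 libraries per cell type, males gave 2 in nB as in GCB, and 4 in BMPC, so sex and cell type were partly confounded. With bulk libraries of 5000 sorted cells, fewer cells that express a gene and less of its RNA per cell cannot be told apart.

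The labelled cell types were checked against their markers. Summed FPKM of 4 germinal center markers (Bcl6, Mybl1, S1pr2, Gcsam) was 405 to 474 in GCB, 14.9 to 64.7 in nB and 0 to 16.6 in BMPC. The 6 plasma cell markers summed to 17008 to 48114 FPKM in BMPC, at most 173 in nB and at most 917 in GCB. Of these markers, Prdm1 (0.838 to 45.2 FPKM) and Irf4 (0.315 to 55.2) made up little of the BMPC sum, and Irf4 had 17.2 to 31.0 FPKM in nB. The mature B cell genes Pax5 and Cr2 were at 0 in every BMPC library. With Ms4a1 and Cd79b added, the mature B cell genes summed to 662 to 971 FPKM in BMPC, nearly all from Cd79b (649 to 968), against 3382 to 4107 in nB and 2113 to 2608 in GCB. The BMPC libraries also held markers of other bone marrow cells, counted as detected if above 0 in at least 1 library. These were 7 of 7 neutrophil genes (summed FPKM 9.37 to 582, against 0 in nB and GCB) and 5 of 5 early B cell genes (308 to 627). So were 4 of 4 erythroid genes in the table (149 to 2194, with up to 218 in nB). Libraries differed, with 6 neutrophil and 3 early B cell genes at 0 in Dnmt3-deficient BMPC replicate 1 and 0 of either in Dnmt3-sufficient BMPC replicate 1. Markers of macrophages summed to 60.0 to 227 FPKM in BMPC, 1.70 to 73.9 in nB and 10.95 to 19.7 in GCB, and those of T cells to 27.0 to 134, 18.4 to 62.3 and 0 to 4.08. Some BMPC sums differed by genotype. Plasma cell sums were 17008 to 26871 FPKM in Dnmt3-sufficient and 31160 to 48114 in Dnmt3-deficient BMPC. In the same order, erythroid sums were 1160 to 2194 and 149 to 797, and macrophage sums 60.0 to 87.7 and 98.4 to 227. Neutrophil, early B cell and T cell sums overlapped. Genotype and the sums that differed cannot be told apart in BMPC. The stains of the sort included CD11b, CD11c, CD90.2 and Ly6-G, used to gate out myeloid cells, neutrophils and T cells. BMPC libraries held 1355231 to 3803197 reads on genes, against 6692516 to 8987922 in nB and 7644544 to 8903872 in GCB. Within BMPC the reads were 2196198 to 3803197 in Dnmt3-sufficient and 1355231 to 2265945 in Dnmt3-deficient libraries, so depth and genotype were partly confounded. Over all exons, Dnmt3a was at 2.24 to 4.33 FPKM in Dnmt3-deficient and 2.35 to 5.18 in Dnmt3-sufficient nB. Such a sum does not check the deletion, because exons outside the floxed part are counted too.

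Before any change is given, the order of levels shows how differently the members were expressed. In nB the mean FPKM ran from Eed (81.5) and Rnf2 (49.8) through Ezh1 (27.9), Jarid2 (16.99), Bmi1 (11.9), Suz12 (11.2), Ezh2 (7.18) and Kdm6b (5.67) to Ring1 (2.91) and Cbx2 (0.0449). In GCB the order was Eed (203), Ezh2 (60.5), Suz12 (23.4), Rnf2 (22.4), Ezh1 (6.01), Jarid2 (2.32), Cbx2 (1.89), Kdm6b (1.59), Ring1 (1.26) and Bmi1 (1.09). Neighbours in nB overlapped, except that Cbx2 lay below Ring1. In GCB the libraries of Eed lay wholly above those of Ezh2, those of Ezh2 above Suz12, and those of Rnf2 above Ezh1, while the other neighbours overlapped. In BMPC all neighbours in the order overlapped, from Eed (21.5), Ezh2 (14.3) and Suz12 (13.8) to Ring1 (2.46) and Cbx2 (0.215).

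**Figure D1:**
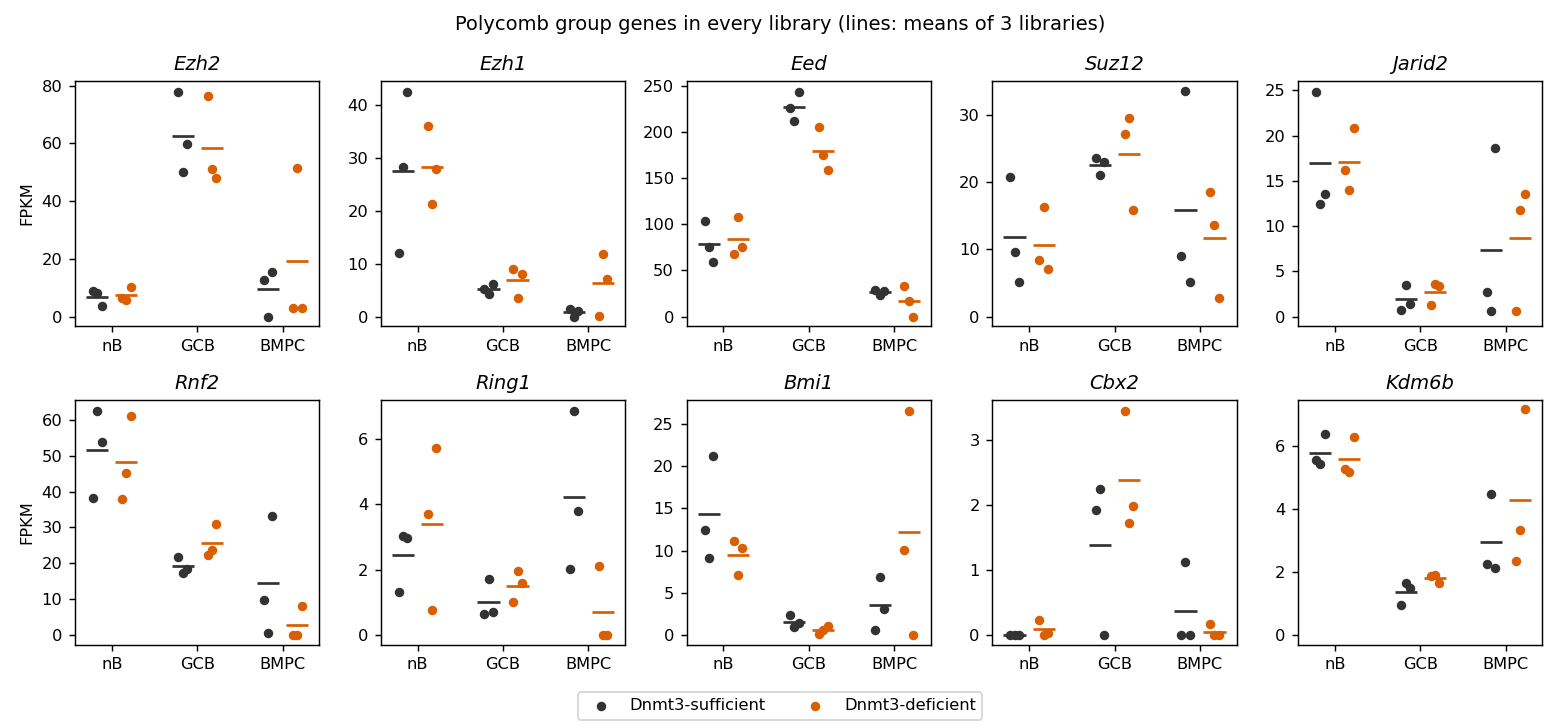
FPKM (vertical axes, linear, 1 scale per gene) of the 10 members in each of the 18 libraries, by cell type (nB, GCB, BMPC) and genotype, with points for libraries and lines for the means of 3. Ezh2, Eed and Cbx2 peak in GCB, while Ezh1, Jarid2, Bmi1, Rnf2 and Kdm6b are highest in nB by their means over both genotypes, and BMPC points are widely scattered.

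The promoters of the PRC2 core genes Ezh2, Suz12 and Eed are shown because these 3 genes were the PRC2 members that rose together in GCB. RefSeq windows of 250 bases before to 50 after the annotated start, on GRCm38.p6, were found for 8 of 10 members. They were searched on both strands for 3 words that E2F factors, regulators of cell cycle genes, are known to bind (TTTCGCGC, TTTGGCGC and TTTCCCGC). The words stood in 606 of 32851 promoters in all, or 1.84%. Of the 8 members with a promoter, 2 had a match and each had 1, Ezh2 at 3 bases from the start and Suz12 at -219. Capitals mark the match, and the Eed window holds none of these words. A match describes the letters only.
Ezh2 (chr6:47594981-47595280, minus strand): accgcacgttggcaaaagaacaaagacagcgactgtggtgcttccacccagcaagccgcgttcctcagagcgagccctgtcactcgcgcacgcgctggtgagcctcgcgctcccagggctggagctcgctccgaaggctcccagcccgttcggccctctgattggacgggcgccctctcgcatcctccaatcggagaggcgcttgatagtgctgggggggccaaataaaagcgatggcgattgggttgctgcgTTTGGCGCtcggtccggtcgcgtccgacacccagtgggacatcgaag
Suz12 (chr11:79992856-79993155, plus strand): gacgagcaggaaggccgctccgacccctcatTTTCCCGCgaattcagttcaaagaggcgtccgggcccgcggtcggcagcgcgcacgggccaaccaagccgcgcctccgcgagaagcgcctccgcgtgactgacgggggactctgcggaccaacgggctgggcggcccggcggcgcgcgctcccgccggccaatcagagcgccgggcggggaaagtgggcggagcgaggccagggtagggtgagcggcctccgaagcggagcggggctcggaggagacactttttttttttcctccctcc
Eed (chr7:89980927-89981226, minus strand): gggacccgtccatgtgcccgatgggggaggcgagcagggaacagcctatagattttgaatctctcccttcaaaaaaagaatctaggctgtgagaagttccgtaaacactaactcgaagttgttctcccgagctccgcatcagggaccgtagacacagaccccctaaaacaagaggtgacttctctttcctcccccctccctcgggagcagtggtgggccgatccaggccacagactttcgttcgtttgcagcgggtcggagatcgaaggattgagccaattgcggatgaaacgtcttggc

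The first comparison asked how the Polycomb genes differ between the dividing cells of the germinal center and naive B cells. Of the 10 members, 4 rose in GCB (Ezh2, Eed, Suz12 and Cbx2), 5 fell (Ezh1, Jarid2, Rnf2, Bmi1 and Kdm6b) and Ring1 was not called. Cbx2 passed the filter only through its GCB values, so its rise is a description and not independent support. Calls rested on limma, with log2(FPKM + 1) moving by 1 or more and the adjusted p at 0.05 or below. Over all 11411 genes tested, 12.1% were called higher and 16.4% lower. The members' median change was -0.90, against -0.14 over all genes tested, and covers changes of both signs.

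Among the PRC2 enzymes, Ezh2 had 3.55 to 10.3 FPKM in nB (median 7.25) and 48.0 to 77.7 in GCB (median 55.5). Its mean was 60.5 ± 13.5 FPKM (SD, n = 6) in GCB and 7.18 ± 2.43 in nB, an 8.43-fold difference. Every GCB library was above every nB library, with a log2 change of 2.94 ± 0.23 (SE, adjusted p = 3.84e-07). Its paralog Ezh1, which encodes the less active enzyme, had 12.0 to 42.3 FPKM in nB (median 28.0) and 3.44 to 9.05 in GCB (median 5.63). All GCB libraries were below all nB libraries, the mean was 4.64-fold lower in GCB, and the log2 change was -2.01 ± 0.31 (adjusted p = 0.000127).

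The pair thus moved in opposite directions. As a description within each library, the log2 ratio of Ezh2 + 1 to Ezh1 + 1 was -3.25 to -0.39 in nB and 2.44 to 3.68 in GCB, so Ezh1 was the higher in all 6 nB libraries and Ezh2 in all 6 GCB libraries. In BMPC the ratio was -1.03 to 2.99, with a mean of 1.35 ± 1.55 (SD, n = 6), and it was 0 in 1 library (Dnmt3-sufficient replicate 2) where both genes had 0 reads. Beside this, the summed FPKM of 10 cell cycle genes was lowest in nB (139 to 169), highest in GCB (1884 to 2129) and 400 to 759 in BMPC. The part of cell division in the Ezh2 level was not tested.

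**Figure D2:**
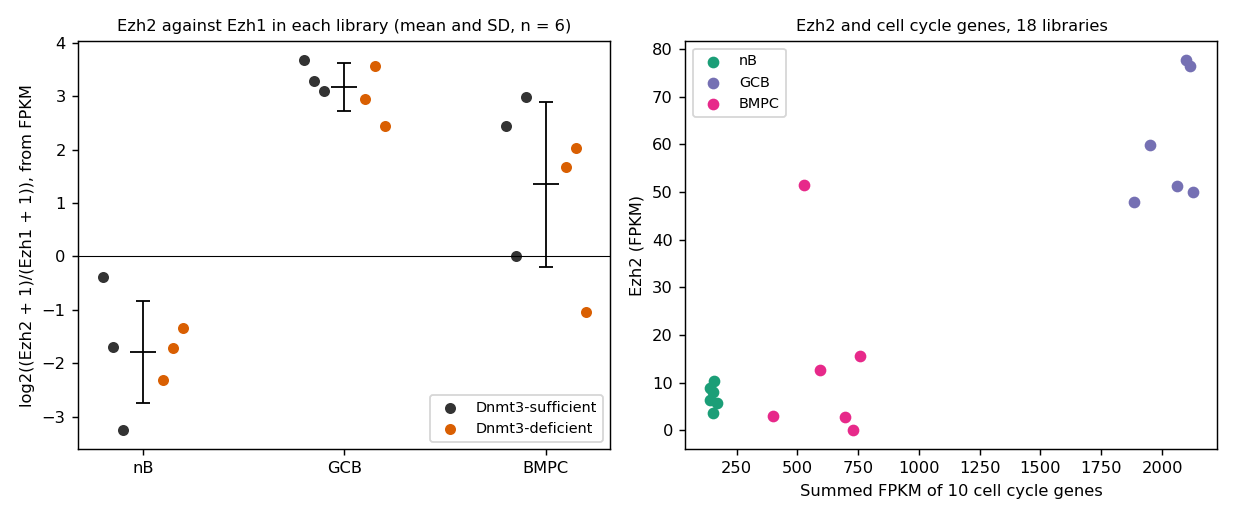
Left, log2((Ezh2 + 1)/(Ezh1 + 1)) from FPKM in each library by cell type and genotype, with black marks for the mean and SD of 6. Right, Ezh2 FPKM against the summed FPKM of 10 cell cycle genes in the 18 libraries, both axes linear. Ratios lie below 0 in all 6 nB and above 0 in all 6 GCB libraries, and 1 BMPC library reaches the Ezh2 level of GCB at a cell cycle sum of 529 FPKM.

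The other PRC2 members also differed. Eed had 59.0 to 108 FPKM in nB (median 75.3) and 159 to 243 in GCB (median 209). No GCB library reached down to the nB range, and the log2 change was 1.33 ± 0.15 (adjusted p = 9.61e-06), or 2.50-fold by the means. Suz12 had 5.16 to 20.8 FPKM in nB (median 9.02) and 15.9 to 29.6 in GCB (median 23.4). Its libraries overlapped, and its change of 1.11 ± 0.30 (adjusted p = 0.00871) was the nearest to the limit of 1. Without Dnmt3-sufficient nB replicate 3 or Dnmt3-deficient nB replicate 3, the libraries with the lowest Suz12 of their groups, it was no longer called, with changes of 0.89 and of just under 1 (0.9996). Jarid2 went the other way, from 12.5 to 24.8 FPKM in nB (median 15.1) to 0.782 to 3.63 in GCB (median 2.36), a log2 change of -2.50 ± 0.30 (adjusted p = 1.79e-05) with no overlap.

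In PRC1, Rnf2, which encodes a RING type enzyme, and its partner Bmi1 fell in GCB and the reader Cbx2 rose. Rnf2 had 37.9 to 62.5 FPKM in nB (median 49.6) and 17.4 to 30.8 in GCB (median 22.0). The ranges did not overlap, and the log2 change was -1.12 ± 0.17 (adjusted p = 0.000122), or 2.23-fold by the means. Its paralog Ring1 was low in both, with 0.771 to 5.72 FPKM in nB (median 2.99) and 0.639 to 1.95 in GCB (median 1.29), and its change of -0.69 had a 95% interval of -1.41 to 0.03 (adjusted p = 0.102). Bmi1, which is also known as Pcgf4 and represses the cell cycle inhibitor gene Cdkn2a, had 7.10 to 21.3 FPKM in nB (median 10.7) and 0.184 to 2.37 in GCB (median 1.02). It showed the steepest fall of the members by means, 10.9-fold, with a log2 change of -2.63 ± 0.27 (adjusted p = 4.61e-06) and no overlap. Cbx2, which reads the PRC2 mark, had 0 to 0.234 FPKM in nB from 8 reads in all, and 0 to 3.45 in GCB (median 1.96) from 364 reads. It was the only member at 0 in a GCB library, and its change was 1.35 ± 0.29 (adjusted p = 0.00168), with the limit of the filter given above.

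Kdm6b, the demethylase, was the most even member in nB, where all 6 libraries lay between 5.16 and 6.35 FPKM. In GCB it had 0.957 to 1.91 FPKM (median 1.65), wholly below the nB libraries, and its log2 change was -1.37 ± 0.21 (adjusted p = 0.000113). The call of 9 members fell to 6 when all 18 libraries shared 1 estimate of spread, where Eed, Suz12 and Rnf2 missed the threshold with adjusted p of 0.103, 0.107 and 0.215. With 1 genotype at a time, 7 members were called in Dnmt3-sufficient and 8 in Dnmt3-deficient libraries.

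**Figure D3:**
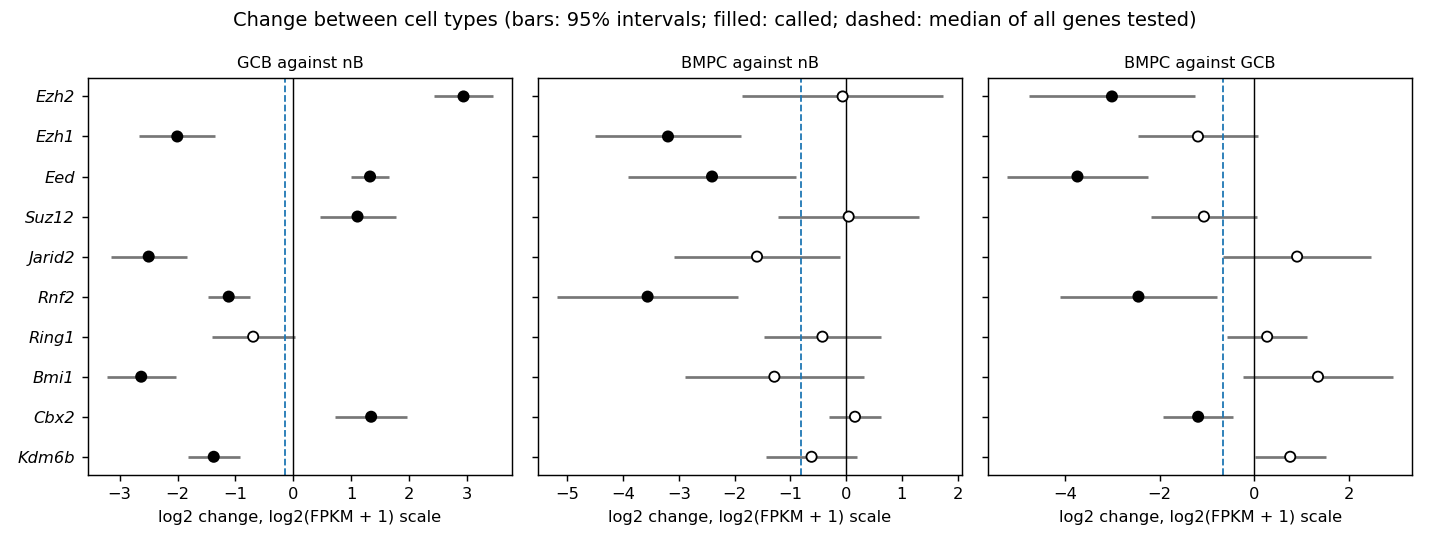
Log2 change on the log2(FPKM + 1) scale (horizontal axes) of the 10 members in the 3 comparisons of cell types, from limma, with 95% intervals as bars. Filled points are called, open points are not, and the dashed line is the median of all genes tested. In GCB against nB 9 points are filled, 4 to the right and 5 to the left, and the bars are wider in both comparisons with BMPC.

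Plasma cells of the bone marrow were then compared with naive B cells. Ezh1, Eed and Rnf2 were lower in BMPC, 0 members were called higher and 7 were not called. In the same comparison 34.2% of 11428 genes were called lower and 8.4% higher, and the median change was -0.95 over the members and -0.81 over all genes, so a share of 3 of 10 members is near that background. The median shift was -0.69 under median of ratios scaling. Changes in BMPC are best read against these medians.

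Ezh1 had 0 to 11.8 FPKM in BMPC (median 1.29), all below the lowest nB library at 12.0, with a log2 change of -3.20 ± 0.60 (adjusted p = 0.00115). Eed had 0 to 33.0 FPKM in BMPC (median 25.1), all below the nB range, with a change of -2.41 ± 0.69 (adjusted p = 0.0137). Without Dnmt3-deficient BMPC replicate 3, the library at 0, the change was -1.64 (adjusted p = 0.000758). Rnf2 had 0 to 33.1 FPKM (median 4.45), again below every nB library, with a change of -3.56 ± 0.75 (adjusted p = 0.00234), or -2.97 without Dnmt3-sufficient BMPC replicate 2. These 3 genes were the members whose BMPC and nB libraries did not overlap. In the Dnmt3-deficient libraries alone Rnf2 was called, while Ezh1 and Eed had adjusted p of 0.0864 and 0.0972. In the Dnmt3-sufficient libraries alone Ezh1 and Eed were called, and Rnf2 had an adjusted p of 0.113.

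Among members not called, Ezh2 had 0 to 51.5 FPKM in BMPC (median 7.78) and a change of -0.06 with a 95% interval of -1.86 to 1.74. Its highest library, Dnmt3-deficient replicate 2, held 197 Ezh2 reads, and the other 5 lay between 0 and 15.6 FPKM. That library also held 529 FPKM of cell cycle, 574 of early B cell and 582 of neutrophil markers in sum. Over the 6 BMPC libraries the cell cycle sum had a range of 400 to 759 FPKM, and the neutrophil sum of this library was the highest. Dnmt3-sufficient replicate 1 and Dnmt3-deficient replicate 3 had neutrophil sums of 526 and 535 FPKM, with Ezh2 at 12.6 and 2.97. The early B cell sum was highest in Dnmt3-sufficient replicate 3 (627 FPKM, with Ezh2 at 15.6). The part of these markers in the Ezh2 level of Dnmt3-deficient replicate 2 was not tested. Suz12 had 2.72 to 33.6 FPKM (median 11.3) and a change of 0.05, with an interval of -1.22 to 1.31. Jarid2 (0.657 to 18.6 FPKM) and Bmi1 (0 to 26.6 FPKM) had changes of -1.60 and -1.29, with adjusted p of 0.0738 and 0.167. Jarid2 passed the threshold without Dnmt3-sufficient or Dnmt3-deficient BMPC replicate 3, and Bmi1 without Dnmt3-deficient BMPC replicate 2, which were the libraries with the highest and second highest Jarid2 and the highest Bmi1 in BMPC. Jarid2 also passed it in the fit to all 18 libraries (adjusted p = 0.0334), with sex as a covariate and with a quality weight per library. Kdm6b (2.12 to 7.15 FPKM), Ring1 (0 to 6.85) and Cbx2 (0 to 1.12) had changes of -0.62, -0.42 and 0.16.

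Between BMPC and GCB, 4 members were lower in BMPC (Ezh2, Eed, Rnf2 and Cbx2), 0 were called higher and 6 were not called. As above, Cbx2 passed the filter only through GCB, so its call is a description and not independent support. Of 11443 genes, 29.3% were called lower and 6.72% higher, with a median change of -0.67, or -0.52 under median of ratios scaling, and of -1.13 over the members. Eed had the largest change of the members, -3.73 ± 0.68 (adjusted p = 0.00115), with every BMPC library below every GCB library, and of -2.96 without the same replicate. Ezh2 changed by -3.01 ± 0.80 (adjusted p = 0.0108), although its highest BMPC library at 51.5 FPKM lay inside the GCB range. The change was -2.35 without Dnmt3-sufficient BMPC replicate 2 (0 FPKM) and -3.63 without the highest library. Rnf2 changed by -2.45 ± 0.75 (adjusted p = 0.0223) and Cbx2 by -1.19 ± 0.34 (adjusted p = 0.0158). Rnf2 was not called without Dnmt3-deficient GCB replicate 3, its highest GCB library, and its change was then -2.38 (adjusted p = 0.0516). Without Dnmt3-sufficient BMPC replicate 2 the change was -1.86 (adjusted p = 0.0335). In the Dnmt3-sufficient libraries alone Eed and Ezh1 were called, and in the Dnmt3-deficient libraries alone Eed, Rnf2 and Cbx2. Ezh2 had adjusted p of 0.0683 and 0.111 there. Cbx2 also missed the threshold by voom (adjusted p = 0.0641) and with a quality weight per library (0.0869).

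The 6 members not called between BMPC and GCB were of both signs. Kdm6b was above every GCB library in every BMPC library, with a change of 0.75 and a 95% interval of 0.0026 to 1.51 (adjusted p = 0.0971). Bmi1 and Jarid2 had changes of 1.34 and 0.90 in the same direction, and Ring1 of 0.27. Ezh1 and Suz12 had changes of -1.19 and -1.07, with adjusted p of 0.118 and 0.115. Bmi1 was called without Dnmt3-deficient BMPC replicate 3 (0 FPKM), Ezh1 without Dnmt3-deficient BMPC replicate 2 (11.8 FPKM) or with sex as a covariate, and Suz12 without Dnmt3-sufficient BMPC replicate 2 (33.6 FPKM).

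The spread between libraries differed by cell type. The SD of the 6 libraries was 36.1% of the mean in nB and 29.3% in GCB for the median member, close to 38.3% and 31.2% for the median gene tested, and 115.6% in BMPC, where the median gene had 103.7%. A value of 0 was found for 12 of 60 member values in BMPC, 4 of 60 in nB and 1 of 60 in GCB, the latter both for Cbx2 only. The share of values at 0 over all genes kept was 31.0% in BMPC, 9.70% in nB and 9.18% in GCB. For the BMPC values at 0, a count of 3 reads, the limit that 0 reads allows, stood for 0.13 to 1.09 FPKM. Each BMPC library had 1 to 4 members at 0. Dnmt3-deficient replicate 2, for example, had 0 reads of Rnf2 and Ring1 beside the highest Bmi1 and Ezh2 of the 6.

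Other Polycomb genes were taken from a list of 34, all in the table, of which 31 were tested. In GCB against nB, 5 of the 31 were higher and 6 lower. Over all genes tested 12.1% were called higher and 16.4% lower, so both counts are near that background. Of the PRC2 partners, 4 of 6 tested were higher and 1 lower, with a median change of 1.57 against -0.14 over all genes. Phf19 and Mtf2, Polycomb-like proteins that bring PRC2 to unmethylated CpG-rich DNA, were at 31.8 ± 3.99 and 75.4 ± 12.7 FPKM (SD, n = 6) in GCB and 1.68 ± 0.35 and 21.6 ± 4.94 in nB, with changes of 3.61 and 1.77. Their relative Phf1 moved the other way, from 10.02 ± 3.86 FPKM in nB to 0.823 ± 0.790 in GCB (change -2.63). The histone binding subunits Rbbp7 and Rbbp4, which are shared with other chromatin complexes, rose by 1.66 and 1.48. Aebp2, a further partner, was not called (-0.35).

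Of 19 PRC1 genes tested, 1 was higher in GCB than in nB and 4 were lower, with a median change of -0.35. Over all genes tested, 12.1% were called higher and 16.4% lower, so these counts are near that background. Cbx7, a reader of the PRC2 mark like Cbx2, fell from 20.3 ± 4.85 to 2.86 ± 1.55 FPKM (change -2.51), opposite in sign to Cbx2. The polyhomeotic genes Phc1 and Phc3 and the DNA binding factor Mga were lower, with changes of -1.36, -1.11 and -1.25, and Yaf2, a partner of variant PRC1, was higher (1.42). The Pcgf genes, which take the place of Bmi1 in variant complexes, had changes of -0.01 (Pcgf1), -0.35 (Pcgf5), -0.44 (Pcgf3) and -0.62 (Pcgf6), none called. Of 6 genes tested whose proteins remove Polycomb marks, 1 was lower, the H2A deubiquitinase Mysm1 (change -1.42), and Kdm6a, the X-linked relative of Kdm6b, was not called (-0.56). Rbbp4, Phc1, Phc3, Mga, Yaf2, Aebp2, the Pcgf genes and Kdm6a were named after their values were seen.

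**Figure D4:**
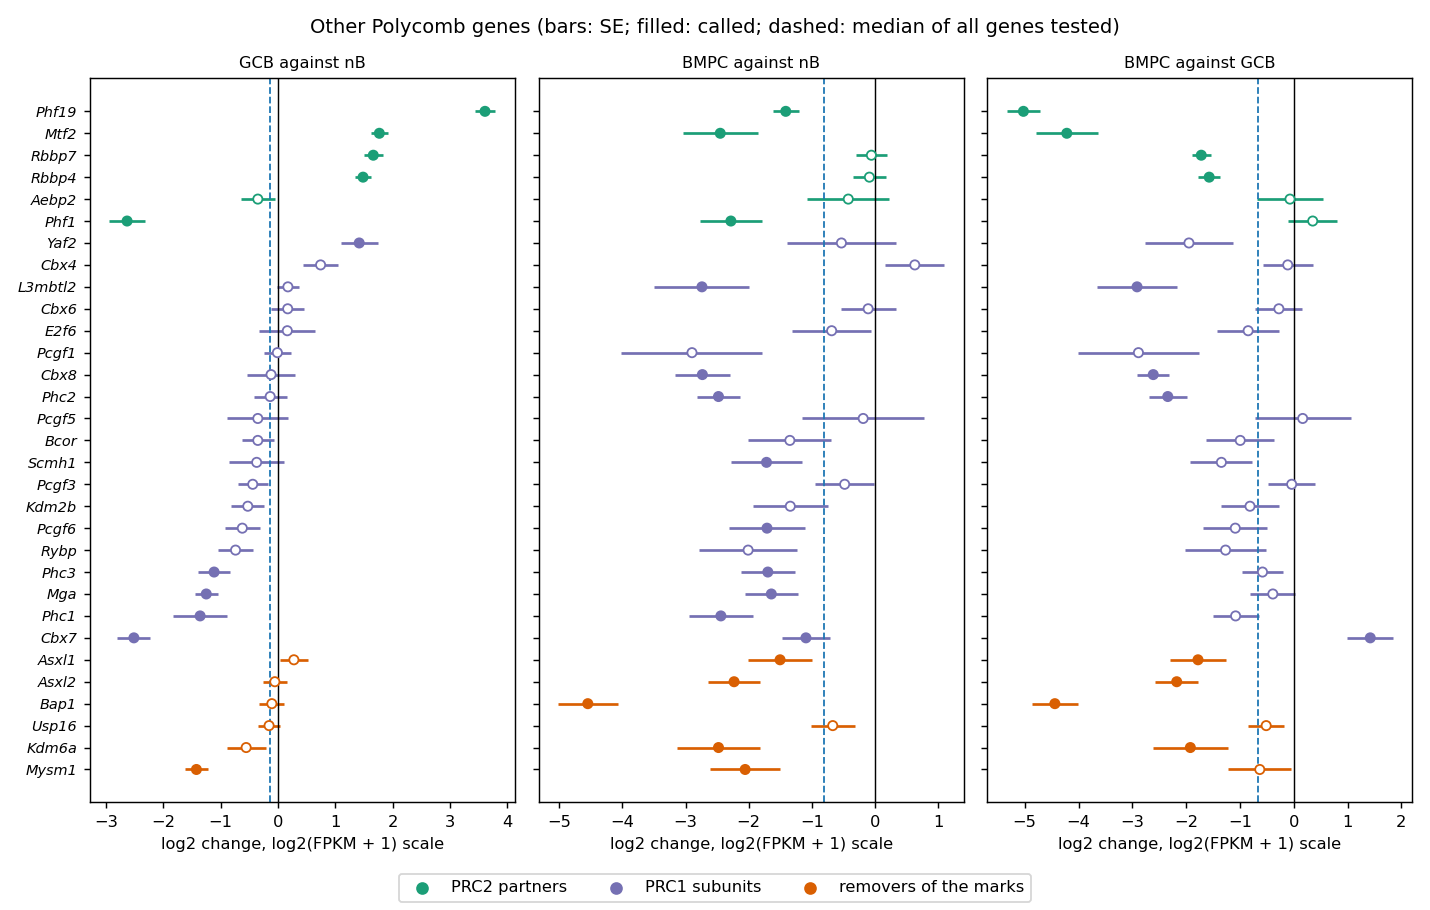
Log2 change on the log2(FPKM + 1) scale of 31 further Polycomb genes in the 3 comparisons of cell types, with SE as bars, filled points for called genes and the median of all genes tested as a dashed line. Colours mark PRC2 partners, PRC1 subunits and genes whose proteins remove the marks. In GCB against nB 4 of 6 PRC2 partners lie to the right, while with BMPC most filled points lie to the left, as does the dashed line.

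In BMPC against nB, 17 of the 31 genes were lower and 0 higher, with a median change of -1.64 against -0.81 over all genes. Of all genes tested there, 34.2% were called lower and 8.4% higher. Named by the size of their change among called genes were Bap1, the catalytic subunit of an H2A deubiquitinase (41.4 ± 14.3 FPKM in nB and 1.02 ± 1.29 in BMPC, change -4.55), L3mbtl2, a subunit of a variant PRC1 (22.5 ± 6.52 and 5.75 ± 9.39 FPKM, change -2.74), and Cbx8. Cbx8, another reader of the mark, had 0 reads in every BMPC library and 7.17 ± 5.59 FPKM in nB. With each BMPC library set to 3 reads, Cbx8 was at least 7.17-fold lower than in nB. This floor covers counting error only, not the spread between libraries. Its change was -2.73 as listed and -1.76 at that floor, so its place among the 3 holds only at 0 reads. In BMPC against GCB, 1 gene was higher, Cbx7 at 9.505 ± 4.88 FPKM (change 1.42), and 11 were lower. Of all genes tested there, 6.72% were called higher and 29.3% lower, so 11 of 31 is near that background. Phf19 had 0 reads in every BMPC library and was at least 107-fold lower than in GCB by the same floor. Bap1 and Mtf2 followed with changes of -4.44 and -4.22. Rbbp4 and Rbbp7 were at 68.0 ± 22.2 and 84.7 ± 32.8 FPKM in BMPC, near their nB means of 71.0 and 84.5. With the genes at 0 set to the floor, the median of the PRC2 partners in BMPC against nB was -0.73 in place of -0.92, and no other median of a list moved.

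Known targets of Polycomb complexes were read beside their regulators. Cdkn2a, the classical target of BMI1 and EZH2, had 0 reads in all nB and BMPC libraries and 1 read in 1 GCB library, and was not tested. Cdkn1a, another cell cycle inhibitor, was not called in any comparison, with a mean of 0.850 FPKM in nB, against 1.08 in GCB and 1.16 in BMPC. Irf4, needed for plasma cells, was at 17.2 to 31.0 FPKM in nB and 2.18 to 7.53 in GCB, a log2 change of -2.06 (adjusted p = 2.13e-05). In BMPC Irf4 was at 0.315 to 55.2 FPKM and was not called against either, and its values by genotype are given below. Prdm1, which drives plasma cell fate, was at 0.838 to 45.2 FPKM in BMPC, against 0 to 0.746 in nB and 0 to 0.783 in GCB (changes of 3.26 against nB and 3.12 against GCB). Irf4 and Prdm1 are also among the plasma cell markers summed above. Of 39 Hox genes listed, which Polycomb complexes keep silent in many tissues, 25 were at 0 in all 18 libraries and 2 passed the filter, and the highest value was 7.44 FPKM in BMPC, 4.02 in GCB and 1.54 in nB.

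The genes whose levels were most like those of Ezh2 over the 18 libraries, by Pearson's r of log2(FPKM + 1), were Rfc2 (0.93), a subunit of the clamp loader of DNA replication, Hmmr (0.93), a spindle protein, Phf6 (0.92), Hist1h4i (0.92), a histone gene, and Srsf3 (0.91), a splicing factor. For Ezh1 they included 9930111J21Rik1 (0.92), Kif21b (0.92), Ganab (0.92) and Unc93b1 (0.92). The libraries fall into 3 cell types, so these values describe a shared order of cell types more than a relation within any of them.

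The remaining question was whether loss of Dnmt3a and Dnmt3b changed these genes within a cell type. No member was called by limma in nB, GCB or BMPC, nor was any gene tested, with 0% of 11161 called in nB, 0% of 11196 in GCB and also 0% of 10639 in BMPC. At an unadjusted p under 0.05 there were 558, 646 and 586 genes, among them 0, 1 and 0 members. By voom on the recovered reads 0 members were called and 0, 0 and 36 genes, and with all 18 libraries in 1 fit 0 members and 6, 0 and 459 genes. The lowest adjusted p of a member was 0.766 in BMPC, 0.849 in GCB and 0.958 in nB, and over all alternatives it was 0.0878.

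In nB the differences between genotypes ran from -0.48 (Bmi1) to 0.20 (Ring1). Ezh2 was at 8.95, 8.06 and 3.55 FPKM in Dnmt3-sufficient and 6.43, 5.76 and 10.3 in Dnmt3-deficient libraries, which overlapped, and the 95% interval of its difference was -0.89 to 1.21. The genotypes overlapped for all 10 members, while they did not for 9.12% of genes tested. The interval lay within a change of 1 in either direction for 5 members (Eed, Jarid2, Rnf2, Cbx2 and Kdm6b) and reached beyond it for the others. For Cbx2 such an interval excludes no fold change. Its 8 reads in nB (0 to 0.234 FPKM) left log2(FPKM + 1) almost no room to move, and its difference reached 1.88 over the alternatives.

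In GCB the genotypes did not overlap for 3 of 10 members (Eed, Rnf2 and Kdm6b), against 10.9% of genes tested. Eed was at 226, 212 and 243 FPKM in Dnmt3-sufficient and 206, 175 and 159 in Dnmt3-deficient libraries, all 3 lower. Its difference of -0.34 had a 95% interval of -0.63 to -0.05 and was the 1 member with an unadjusted p under 0.05 (adjusted p = 0.849). Rnf2 was at 21.8, 17.4 and 18.3 against 22.2, 23.7 and 30.8 FPKM, all 3 higher in Dnmt3-deficient libraries, with a difference of 0.39 (adjusted p = 0.849). Kdm6b was at 0.957, 1.63 and 1.49 against 1.87, 1.91 and 1.66 FPKM, a difference of 0.26 (adjusted p = 0.905). Ezh2 was at 77.7, 49.99 and 59.8 in Dnmt3-sufficient and 76.5, 51.2 and 48.0 FPKM in Dnmt3-deficient libraries, and its interval of -0.62 to 0.42 lay within a change of 1 in either direction, as did those of Eed, Rnf2, Kdm6b and Suz12. Bmi1, at 2.37, 1.00 and 1.38 against 0.184, 0.552 and 1.04 FPKM, had a difference of -0.70 with an interval of -1.44 to 0.04.

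In BMPC the genotypes overlapped for all 10 members, against 11.2% of genes tested that did not. Ezh2 was at 12.6, 0 and 15.6 FPKM in Dnmt3-sufficient and 2.82, 51.5 and 2.97 in Dnmt3-deficient libraries, and its interval ran from -2.84 to 4.05. Ring1 was at 2.01, 6.85 and 3.79 FPKM in Dnmt3-sufficient libraries and at 2.11, 0 and 0 in Dnmt3-deficient libraries, a difference of -1.73 with an interval of -4.06 to 0.60 (adjusted p = 0.766). Rnf2 was at 9.78, 0.655 and 33.1 against 0, 0 and 8.24 FPKM, a difference of -2.01 with an interval of -5.54 to 1.51. No member had an interval within a change of 1 in either direction, the narrowest being that of Cbx2 (-1.09 to 0.52), so a difference of this size was not excluded for any of the 10 in BMPC. Cbx2 had 17 reads in BMPC, and values so near 0 have little room to move on this scale. Read depth and the plasma cell, erythroid and macrophage sums also differed between genotypes in BMPC, and their part in these differences was not tested.

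**Figure D5:**
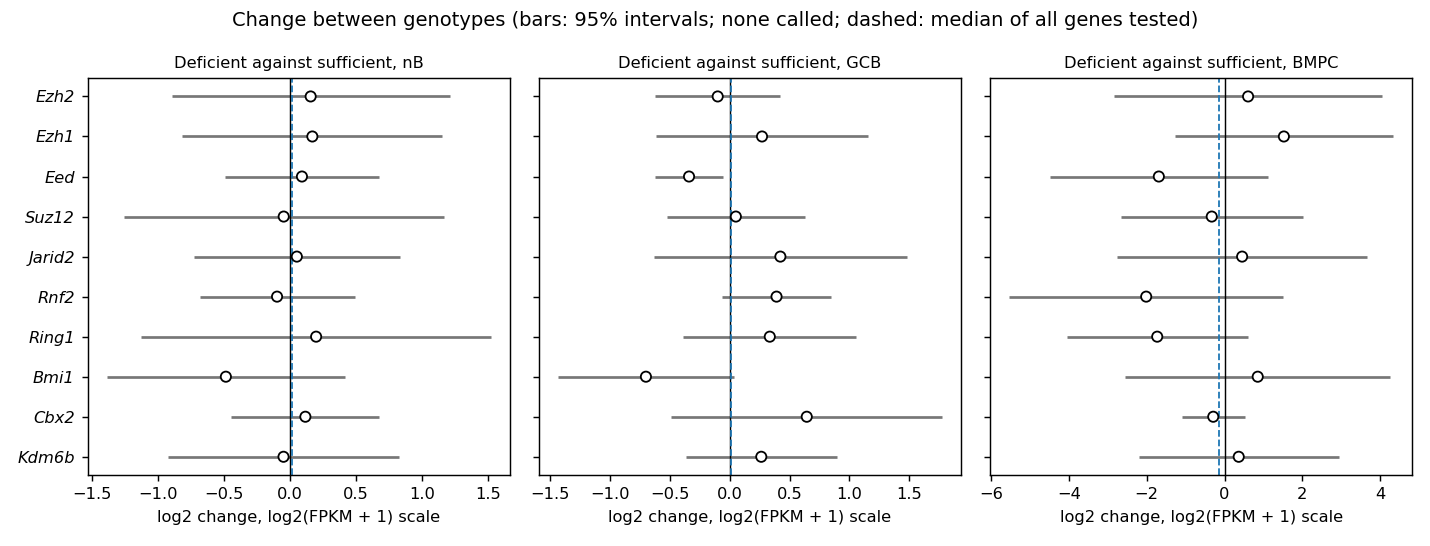
Difference between Dnmt3-deficient and Dnmt3-sufficient libraries on the log2(FPKM + 1) scale for the 10 members in nB, GCB and BMPC, with 95% intervals from limma as bars and the median of all genes tested as a dashed line. All points are open because none was called, and the horizontal scale is wider for BMPC, where the intervals span up to 7.05 units.

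The test of whether the genotype difference itself differed between cell types called 0 members in each of 3 comparisons, with adjusted p of 0.652 or more. Among all genes it called 0% for GCB against nB, 0.131% for BMPC against nB and 0.157% for BMPC against GCB. At an unadjusted p under 0.05 there were 622, 818 and 786 genes and 0, 0 and 1 members, the last being Ring1 in BMPC against GCB, with a difference of -2.07 (adjusted p = 0.652). By voom 0, 19 and 39 genes were called and 0 members. None of the other Polycomb genes (31 tested in nB and GCB, 29 in BMPC) was called between genotypes in a cell type by limma, nor were Cdkn1a, Irf4 and Prdm1. In BMPC, Irf4 was at 37.3 to 55.2 FPKM in Dnmt3-sufficient and 0.315 to 27.9 in Dnmt3-deficient libraries, with no overlap. Its difference was -2.45 (adjusted p = 0.766), and the genotypes did not overlap for 11.2% of genes tested there. Cdkn1a and Prdm1 overlapped.

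All 10 members lie on annotated autosomal loci, given here on build NCBIM37 (mm9) from GENCODE vM1. Chromosome 11 holds 4 of them, Kdm6b (69212010 to 69227177), Suz12 (79806608 to 79847625), Ezh1 (101052429 to 101087777) and Cbx2 (118884276 to 118892584). Ezh2 lies on chromosome 6 (47480273 to 47545340), Eed on chromosome 7 (97103166 to 97129493), Jarid2 on chromosome 13 (44824843 to 45017012), Bmi1 on chromosome 2 (18598645 to 18608256), Rnf2 on chromosome 1 (153316536 to 153347953) and Ring1 on chromosome 17 (34157737 to 34161625). The preparation did not mark the strand, and 4 members overlap an antisense gene model, Ezh2 with Gm17629, Suz12 with Gm16706, Kdm6b with 1700064E03Rik and Jarid2 with SNORA61. Reads from an overlap cannot be told apart by strand.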

How the data were processed

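RNA of 5000 sorted cells per library was copied to cDNA with the SMART-Seq v2 kit, cut and tagged with Nextera adapters, and sequenced as 50-base read pairs. This preparation does not mark the strand. The authors mapped the reads to mouse build mm9 with TopHat, kept reads with a single hit and counted those that overlapped exons of a single UCSC KnownGenes gene with summarizeOverlaps. The deposited FPKM values are these counts divided, by the authors, by exon length and by the reads counted on the listed genes. FPKM times exon length gave whole reads for 100% of values, within 0.01 read, so the depth could be recovered. BMPC libraries were the shallowest (1355231 to 3803197 reads), below nB (6692516 to 8987922) and GCB (7644544 to 8903872). Amplified reads carry no molecular identifiers, so read floors cover counting error only.

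The table held 21761 genes, 92 without a symbol, and 0 columns of no sample. Its columns of log2 fold changes and adjusted p-values came from the authors' own edgeR 3.12.1 comparisons and were not used. A filter (2 or more of 18 libraries over FPKM 1) kept 11522 genes, and genes at 0 in every library of a fit were dropped from it. Values were compared as log2(FPKM + 1) with limma 3.58.1 in R 4.3.3, with 1 mean per group, an intensity trend, two-sided tests and Benjamini-Hochberg adjustment over all genes tested. Calls needed both a change of 1 or more and an adjusted p no higher than 0.05. A cell type comparison used the 12 libraries of both cell types and a genotype comparison the 6 libraries of its own cell type. Changes on this scale understate those of low genes. The limma fit was also run on simulated counts with 200 genes changed. It recovered 100% of 8-fold changes for GCB against nB, BMPC against nB and genotype in GCB. For genotype in BMPC it recovered 56.5% of 8-fold and 99.5% of 64-fold changes. Unchanged genes were called in 13 and 18 cases for BMPC against nB, at 8-fold and 64-fold, and in 1 to 10 cases in the other runs. The changed genes were drawn from those with higher mean FPKM only. All genes were given the median spread of well counted genes of their cell type. The shares recovered therefore do not cover low or more variable genes, nor changes near the limit of 1. The other comparisons and the alternatives were not simulated.

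The members, the other Polycomb genes and the marker lists were chosen with earlier results of these data known. All 10 members were named. Of the other Polycomb genes, the rule named up to 3 called genes with the largest rise and 3 with the largest fall per comparison of cell types, and it also named the 5 genes most like Ezh2 and the 5 most like Ezh1. Groups and replicate numbers came from the labels. Alternatives changed the fit (all 18 libraries, sex as covariate, quality weights, voom on recovered reads, a replicate block in GCB), the values (a pseudocount of 0.1, median of ratios scaling), the filter (none, or 3 libraries over FPKM 3), the limit (no minimum change) or the libraries (1 genotype at a time, or each left out). Gene positions are those of GENCODE vM1 on NCBIM37, the same assembly as mm9. Promoter sequences are from RefSeq on GRCm38.p6. A few genes and an allele name are not reported here.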

Additional observations from a re-analysis of the deposited data

Results flagged for a closer look

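For each member and cell type, the lowest and the highest of the 6 libraries were compared with their nearest neighbour by Dixon's ratio. Of 30 such groups, 4 held a library past the 95% critical value. The rate of about 1 group in 20 by chance assumes normal values. It does not apply to groups mostly at 0, such as Cbx2 with 4 of 6 libraries at 0 in nB as in BMPC. The number flagged is therefore not set against it. Dnmt3-deficient BMPC replicate 3 was listed at 0 FPKM for Eed, with 0 reads, while the other 5 BMPC libraries held 16.8 to 33.0 FPKM. The remaining 3 were all for Cbx2, the member with the fewest reads. Dnmt3-deficient nB replicate 1 stood at 0.234 FPKM, from 7 reads, with the other nB libraries at 0 to 0.0350 FPKM. Dnmt3-sufficient GCB replicate 3 was at 0 FPKM, with the other GCB libraries at 1.73 to 3.45 FPKM. Dnmt3-sufficient BMPC replicate 2 reached 1.12 FPKM, from 16 reads, with the other BMPC libraries at 0 to 0.164 FPKM.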

How the results depend on the processing

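Of the 9 counts of members called, 7 stayed within 1.5 times under every alternative. These include the counts for genotype and for genotype by cell type, which were 0 in the main fit and throughout. Between cell types, only the count for GCB against nB (9 members, at fewest 6) stayed within that limit. With Dnmt3-deficient libraries only, 1 member was called in BMPC against nB, in place of 3, and with Dnmt3-sufficient libraries only, 2 in BMPC against GCB, in place of 4. GCB libraries of the same number showed no shared deviation from their groups (correlations of 0.0257, -8.06e-05 and -0.0171). Such values cannot show whether the mice were paired by design. The replicate block called 0 members. Cbx2 could not be tested with FPKM above 3 in at least 3 libraries required. The genes called in the test of genotype by cell type were 15 for BMPC against nB and 18 for BMPC against GCB, and over the alternatives 7 to 89 and 5 to 112, with 0 members throughout. Without any 1 BMPC library they were 27 to 89 and 44 to 112, highest without Dnmt3-deficient replicate 1. Without any 1 nB library the first was 7 to 12, and without any 1 GCB library the second was 7 to 10. Summed reads were low for Cbx2 (8 in nB, 364 in GCB, 17 in BMPC) and Ring1 (279, 130 and 97). In BMPC they reached at most 967 for a member (Suz12). Ezh2 had 0 reads in Dnmt3-sufficient BMPC replicate 2, with 3803197 reads on genes. It had 197 in Dnmt3-deficient BMPC replicate 2, with 1355231. The part of read depth in the BMPC spread was not tested.

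The reversed values all belong to members that were not called. In BMPC against nB, the change of Ezh2 was 0.10 under median of ratios scaling and 0.16 in Dnmt3-deficient libraries, where Suz12 had -0.10 and Cbx2 -0.0448, and Ring1 had 0.54 in Dnmt3-sufficient libraries. In BMPC against GCB, Ring1 had -0.28 with a pseudocount of 0.1, -0.0247 by voom and -0.76 in Dnmt3-deficient libraries. By voom, the genotype difference of Suz12 in nB was 0.0248 and that of Bmi1 in BMPC -0.50. The cause was not tested.

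With each library left out in turn, changes that turned sign ranged, in BMPC against nB, from -0.69 to 0.59 (Ezh2), -0.31 to 0.41 (Suz12) and -0.0224 to 0.25 (Cbx2), and in BMPC against GCB from -0.00447 to 0.44 (Ring1). Genotype differences in nB ranged from -0.20 to 0.37 (Ezh2), -0.31 to 0.55 (Ezh1), -0.10 to 0.30 (Eed), -0.48 to 0.43 (Suz12), -0.12 to 0.35 (Jarid2), -0.29 to 0.0574 (Rnf2), -0.21 to 0.75 (Ring1) and -0.12 to 0.0124 (Kdm6b). In GCB they ranged from -0.31 to 0.0666 (Ezh2) and -0.11 to 0.32 (Suz12). In BMPC they ranged from -0.70 to 1.33 (Ezh2), -0.86 to 0.40 (Suz12), -0.33 to 1.47 (Jarid2), -0.16 to 2.23 (Bmi1) and -0.47 to 0.0729 (Cbx2).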
